A study of Mus musculus with 79 samples.

Results

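The genes described here mark blood monocytes and the subsets they fall into. They are Ccr2, Fcgr1 and Ifitm6 of the classical subset, Csf1r and Cx3cr1, which both subsets carry at different levels, and Emr4 (also named Adgre4), Treml4, Spn and Ace of the nonclassical subset. These 9 genes, each measured by 1 entry of the array table, were followed among the 31350 genes measured in whole lung RNA of 79 mice. They were put together with the exposure differences of the same mice known, so the differences between smoke-exposed and sham-exposed mice are given as a description without a test. Their differences by sex and by genotype were not part of that choice and were tested. The dependence of a difference on another factor was also tested. Since the exposure differences were known, the test of how they changed with duration is not independent of the choice.

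Classical monocytes, which carry much Ly6C in the mouse, leave the bone marrow through the chemokine receptor CCR2 and enter inflamed tissue, where they can become macrophages and dendritic cells. Nonclassical monocytes arise largely from classical ones under control of the nuclear receptor NR4A1, carry more CX3CR1 and patrol the inner wall of small vessels, including those of the lung. Both carry the growth factor receptor CSF1R. In RNA of a whole organ, fewer monocytes, less RNA per monocyte and changes in other cells that carry these genes cannot be told apart.

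The mice were WT and βENaC littermates of both sexes, 5 to 7 weeks old. βENaC mice overexpress Scnn1b, the β subunit of the epithelial sodium channel, in airway epithelium, which gives them thick airway mucus and airway inflammation. The agent was mainstream and side-stream smoke of 6 3R4F research cigarettes per day with the filters removed, and sham-exposed mice were placed in the same chamber with room air. The right lung was taken 4 hours after the last exposure on a single day or on the last of 5 consecutive days. There were 16 groups of 4 to 6 mice. At 1 day 20 mice were exposed to smoke and 20 to sham, and at 5 days 19 and 20. Scnn1b was between 8.42 and 9.47 in WT mice and between 11.52 and 11.88 in βENaC mice, and the lung genes Sftpc, Scgb1a1, Ager, Foxj1 and Pecam1 had a mean level of 11.26 in either exposure arm at 1 day. In 13 WT smoke-exposed mice the source name calls the animal βENaC while title and genotype say WT. All values are log2 intensities, on which a difference of 1 is a doubling. Array medians lay between 4.44 and 4.55. The arrays least like the rest of their group were those of βENaC smoke-exposed female replicate 3 at 5 days (mean correlation 0.9808), βENaC sham-exposed male replicate 1 at 1 day (0.9814) and WT smoke-exposed female replicate 2 at 5 days (0.9832). The count of the 9 genes called in each comparison was the same without these 3 arrays.

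Stretches of 250 bases before the transcript start were read for 8 of the 9 genes from RefSeq (GRCm38.p6) and searched on both strands for the letters of 5 motifs. AGGAAGT, the core bound by the myeloid factor PU.1, was present before Fcgr1, Ifitm6 and Spn, against 7.69% of all 32851 such stretches. TTGCNNAA, a C/EBP motif, was present before Emr4 (9.56% of all), and GAAANNGAA, an interferon response motif, before Ccr2 (7.13% of all). Neither AAAGGTCA, a motif of NR4A factors (1.34% of all), nor GCGTG, the core of the aryl hydrocarbon receptor motif (28.2% of all), was found in these windows. No match overlapped another, and Cx3cr1, Treml4 and Ace held none of the 5. The last 100 bases before the start are printed for the genes in which a match lies outside the annotated gene, 5′ to 3′ on the strand of the gene, with the match, read on the opposite strand, in capitals.
Ifitm6 (chr7:141016893-141016992, minus strand, PU.1 letters 12 to 6 bases before the start): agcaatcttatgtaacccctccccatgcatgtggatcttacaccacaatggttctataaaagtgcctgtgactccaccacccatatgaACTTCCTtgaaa
Fcgr1 (chr3:96293970-96294069, minus strand, PU.1 letters 61 to 55 bases before the start): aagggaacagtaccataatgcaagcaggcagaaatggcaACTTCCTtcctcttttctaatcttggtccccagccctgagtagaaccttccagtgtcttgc
Emr4 (chr17:55749884-55749983, plus strand, C/EBP letters 46 to 39 bases before the start): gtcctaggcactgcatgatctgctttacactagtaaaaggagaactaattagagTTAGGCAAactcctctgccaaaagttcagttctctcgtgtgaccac

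Among the 9 genes, 8 were lower in smoke-exposed than in sham-exposed mice at both durations, and Ace was not. Fcgr1, Ifitm6, Emr4 and Treml4 met the definition of an exposure-response gene at 1 day (adjusted p below 0.05 and a change over 1.3-fold), as 0.59% of all genes did in the lower direction. These genes with Ccr2 and Cx3cr1, 6 of 9, met it at 5 days, as 0.577% of all genes did. Since the genes were chosen on this contrast, nothing is read from these counts. The median coefficient of the 9 genes was -0.44 at 1 day and -0.51 at 5 days, against 0.01 and -0.002 over all genes. The choice of the genes bears on these medians too, so nothing is read from them.

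**Figure D1:**
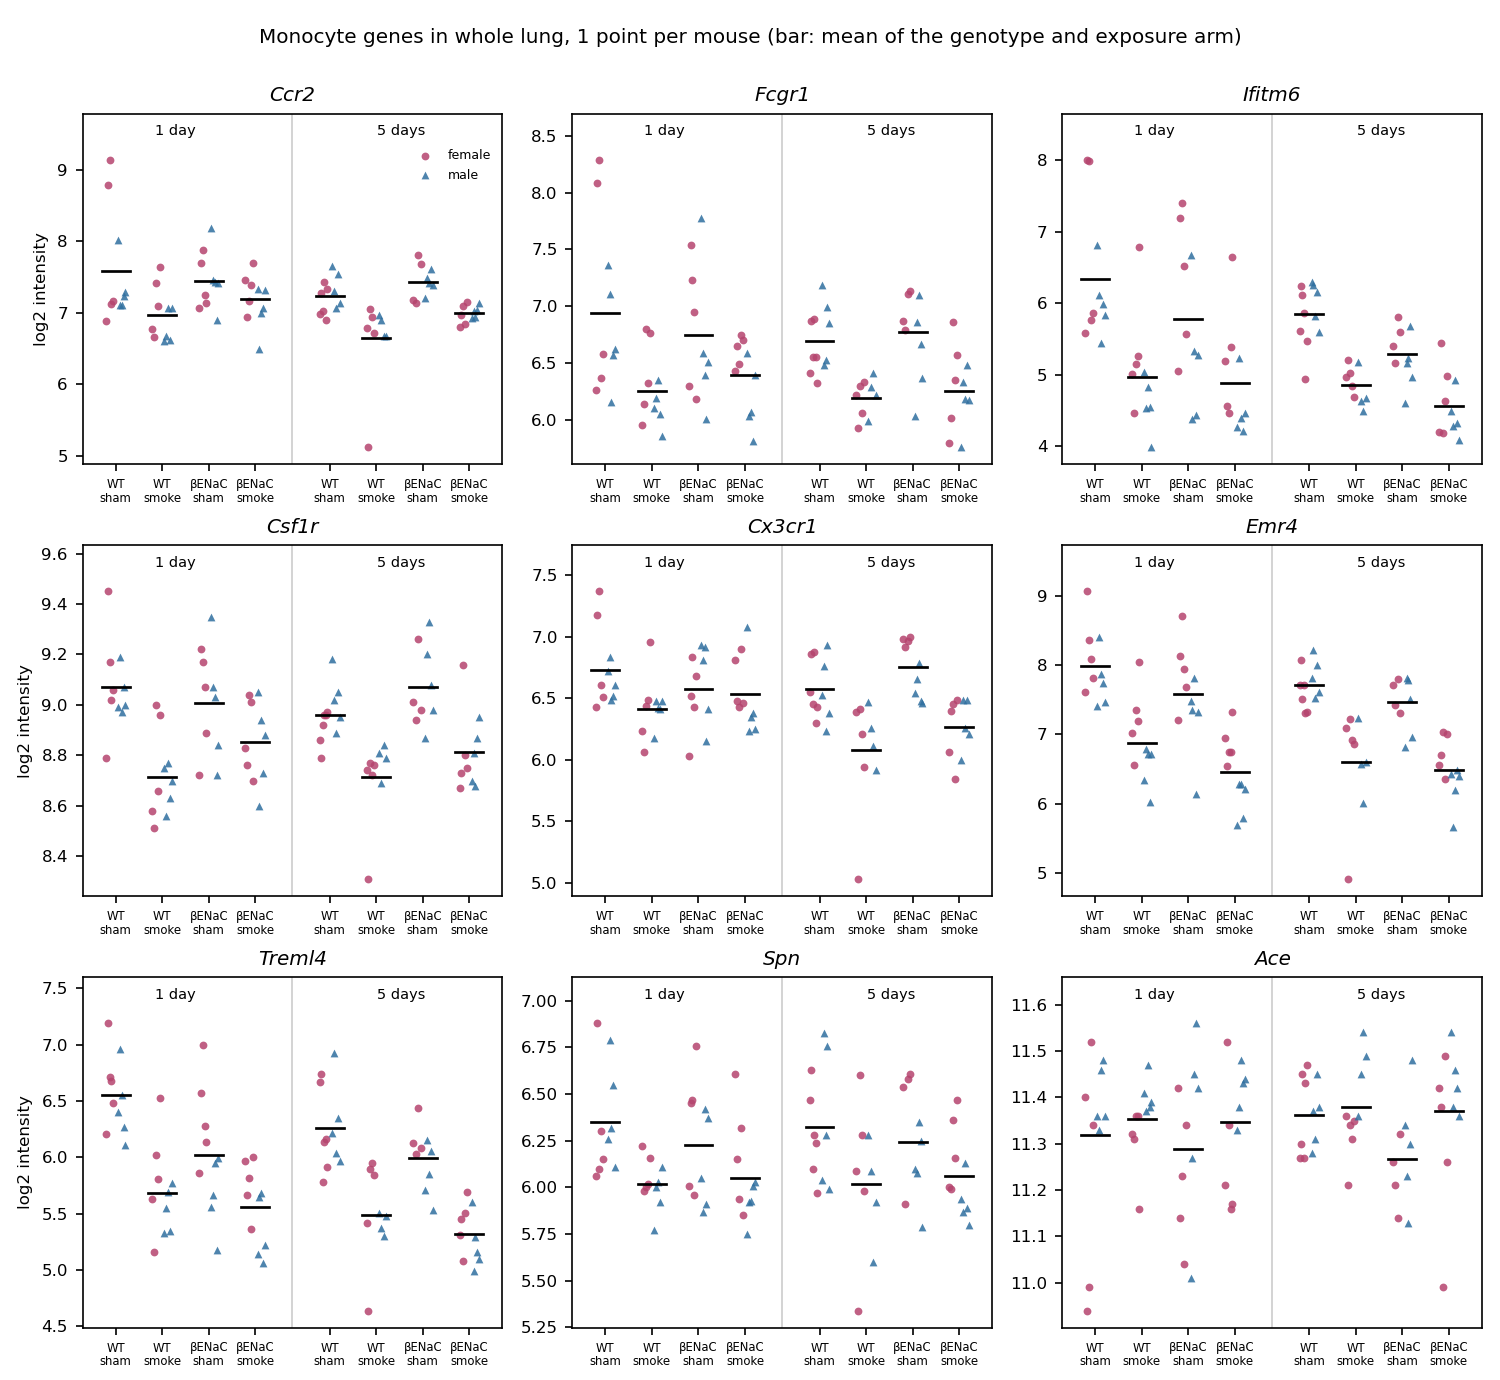
Log2 intensity of the 9 genes (vertical axes, each with its own scale) in every mouse, by genotype, exposure and duration. Circles are females, triangles are males and bars are arm means. At 5 days 18 of 20 sham-exposed mice lay above every smoke-exposed mouse in Emr4, 14 of 19 smoke-exposed mice lay below every sham-exposed mouse in Treml4, and the arms of Ace overlap.

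Among the classical genes, Ccr2 (NM_009915, chr9:124101918-124109140), the receptor for CCL2, ran from 6.88 to 9.14 with a median of 7.27 in sham-exposed mice at 1 day, and from 6.49 to 7.70 with a median of 7.06 in smoke-exposed mice. At 5 days it ran from 6.90 to 7.80 (median 7.31) under sham and from 5.12 to 7.15 (median 6.94) under smoke. The ranges overlapped at both durations, and at 5 days all 19 smoke-exposed mice lay below the sham median. The coefficient of smoke against sham was -0.44 (SE 0.15) at 1 day and -0.51 (SE 0.10) at 5 days. Fcgr1 (NM_010186, chr3:96282909-96293969), the high-affinity receptor for IgG, ran from 6.01 to 8.29 (median 6.58) under sham and from 5.81 to 6.80 (median 6.34) under smoke at 1 day. At 5 days it ran from 6.03 to 7.19 (median 6.82) and from 5.76 to 6.86 (median 6.22). The arms overlapped, with 18 of 19 smoke-exposed mice below the sham median at 5 days, and the coefficients were -0.52 (SE 0.16) and -0.51 (SE 0.09).

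Ifitm6 (NM_001033632, chr7:141015812-141016892), a member of the interferon-induced transmembrane family carried by classical monocytes, had the largest SD within groups, 0.65. It ran from 4.38 to 8.01 (median 5.85) under sham and from 3.99 to 6.79 (median 4.70) under smoke at 1 day, and from 4.61 to 6.30 (median 5.61) and 4.09 to 5.44 (median 4.67) at 5 days. All 19 smoke-exposed mice at 5 days lay below the sham median and 13 of 20 sham-exposed mice lay above every smoke-exposed one. The coefficients were -1.14 (SE 0.24) and -0.87 (SE 0.12), and the 1-day difference was larger than that of any other of the 9 genes. The highest sham values at 1 day were those of 2 WT females. In WT sham-exposed females Ifitm6 was 5.58, 8.01, 7.99, 5.77 and 5.87 in replicates 1 to 5. Replicates 2 and 3 were also high in Ccr2, at 8.79 and 9.14, and in Fcgr1, at 8.08 and 8.29, while their Ace values of 10.94 and 10.99 were the lowest of the 79 mice, level with the 10.99 of βENaC smoke-exposed female replicate 3 at 5 days.

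Csf1r (NM_001037859, chr18:61105572-61131139), the receptor for the growth factors CSF1 and IL-34, differed by a small amount. It ran from 8.72 to 9.45 (median 9.04) under sham and from 8.51 to 9.05 (median 8.75) under smoke at 1 day, with a coefficient of -0.26 (SE 0.06). At 5 days it ran from 8.79 to 9.33 (median 8.97) and from 8.31 to 9.16 (median 8.76), with a coefficient of -0.25 (SE 0.04). Both are under the 1.3-fold limit. At both durations 18 smoke-exposed mice lay below the sham median.

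Cx3cr1 (NM_009987, chr9:120048683-120068296), the fractalkine receptor that patrolling monocytes use, was the gene whose description differed most between durations. At 1 day it ran from 6.03 to 7.37 (median 6.61) under sham and from 6.06 to 7.08 (median 6.44) under smoke, and no smoke-exposed mouse lay below the sham range. At 5 days it ran from 6.23 to 7.00 (median 6.61) under sham and from 5.03 to 6.49 (median 6.26) under smoke, and 9 of 19 smoke-exposed mice lay below it. The coefficients were -0.17 (SE 0.09) and -0.49 (SE 0.09). The difference between durations, tested over all mice in a model of exposure, duration and their product, was -0.30 (SE 0.13) with an unadjusted p of 0.0254 and an adjusted p of 0.346 (limma, Benjamini-Hochberg over all genes), so it did not pass. Of all genes, 0.612% passed this test and none of the 9 did.

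Among the nonclassical genes, Emr4 (NM_139138, chr17:55749984-55853662), an adhesion receptor of the EGF-TM7 family, had the largest coefficient of the 9 genes at 5 days and the second largest at 1 day. At 1 day it ran from 6.14 to 9.07 (median 7.77) under sham and from 5.69 to 8.05 (median 6.71) under smoke. At 5 days it ran from 6.82 to 8.22 (median 7.66) under sham and from 4.91 to 7.24 (median 6.57) under smoke. At 5 days smoke-exposed and sham-exposed mice did not overlap within any of the 4 combinations of genotype and sex, with differences between -1.23 and -0.84. The coefficients were -1.12 (SE 0.14) and -1.05 (SE 0.14), a 2.17-fold and a 2.07-fold lower intensity.

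Treml4 (NM_001033922, chr17:48264200-48275607), a TREM family receptor of nonclassical monocytes and some dendritic cells, ran from 5.18 to 7.19 (median 6.27) under sham and from 5.06 to 6.53 (median 5.66) under smoke at 1 day. At 5 days it ran from 5.53 to 6.93 (median 6.10) and from 4.64 to 5.95 (median 5.42). All but 1 of the 20 smoke-exposed mice at 1 day and all 19 at 5 days lay below the sham median. The coefficients were -0.67 (SE 0.11) and -0.73 (SE 0.10). Spn (NM_001037810, chr7:127123637-127145552) encodes CD43, a sialomucin carried by nonclassical monocytes and also by T cells and NK cells. It ran from 5.87 to 6.88 (median 6.28) under sham and from 5.75 to 6.61 (median 6.01) under smoke at 1 day, and from 5.79 to 6.83 under sham at 5 days, where the smoke-exposed mice were at 6.04 ± 0.29 (SD, n = 19) against 6.29 ± 0.30 (n = 20). The coefficient was -0.25 at both durations (SE 0.08 and 0.09), and the arms overlapped, with 14 of 19 smoke-exposed mice below the sham median at 5 days.

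Ace (NM_001281819, chr11:105967948-105989964), angiotensin-converting enzyme, is carried by nonclassical monocytes but in lung chiefly by the endothelium of capillaries. It ran from 10.94 to 11.56 (median 11.35) under sham and from 11.16 to 11.52 (median 11.37) under smoke at 1 day, and from 11.13 to 11.48 (median 11.30) and 10.99 to 11.54 (median 11.38) at 5 days. The arms overlapped, with 8 of 20 and 3 of 19 smoke-exposed mice below the sham median, and the coefficients were 0.05 (SE 0.04) and 0.06 (SE 0.04).

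**Figure D2:**
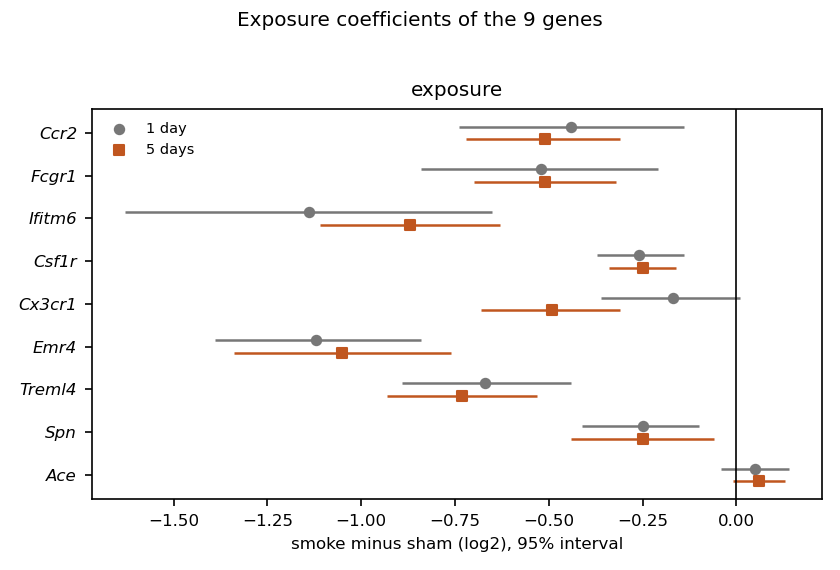
Coefficient of smoke against sham (horizontal axis, log2 difference) for each gene at 1 day (grey circles) and 5 days (orange squares), with 95% intervals from the limma fit with genotype and sex. The points run from -1.14 (Ifitm6) to 0.05 (Ace) at 1 day and from -1.05 (Emr4) to 0.06 (Ace) at 5 days, and the intervals describe precision only.

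The 16 group means of each gene were put in order. For Emr4 they ran from 6.05 in βENaC smoke-exposed males at 1 day to 8.19 in WT sham-exposed females at 1 day, and 7 of the 8 lowest means were of smoke-exposed groups. For Ifitm6 the order ran from 4.43 in βENaC smoke-exposed males at 5 days to 6.64 in WT sham-exposed females at 1 day. For Csf1r the 8 lowest means were the 8 smoke-exposed groups. Neighbours in the order of 16 lay closer together than the pooled SD of mice within groups (0.47 for Emr4 and 0.65 for Ifitm6) in all 9 genes, which so many means leave little room to avoid. At 5 days alone the Emr4 means were 6.24 to 6.73 in the smoke-exposed groups and 7.38 to 7.84 in the sham-exposed groups, a gap larger than that SD. Emr4 had the largest exposure coefficient at 5 days and the genes were chosen on this contrast, so nothing is read from the gap.

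At 1 day Emr4, Ifitm6 and Treml4, 3 of the 9 genes, were lower in males than in females, and no gene was higher, while 0.185% of all genes were called lower in males. Emr4 ran from 6.54 to 9.07 (median 7.49) in 20 females and from 5.69 to 8.41 (median 6.75) in 20 males. The coefficient of male against female was -0.67 (SE 0.14, limma adjusted p = 0.000804), and the difference was -0.57 within sham-exposed mice and -0.77 within smoke-exposed mice. Ifitm6 ran from 4.47 to 8.01 (median 5.58) in females and from 3.99 to 6.82 (median 4.94) in males, with a coefficient of -0.80 (SE 0.24, adjusted p = 0.026) and differences of -0.87 and -0.74 within sham and smoke. Treml4 ran from 5.16 to 7.19 (median 6.08) in females and from 5.06 to 6.96 (median 5.67) in males, with a coefficient of -0.40 (SE 0.11, adjusted p = 0.0132).

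Across the alternatives other than left-out mice, adjusted p ran from 0.000304 to 0.0015 for Emr4, from 0.00228 to 0.0359 for Ifitm6 and from 0.00541 to 0.0193 for Treml4. The sexes overlapped in each of the 3 genes. Without any 1 of 4 mice (WT sham-exposed female replicate 2, βENaC sham-exposed female replicate 3, WT smoke-exposed female replicate 5 or βENaC sham-exposed male replicate 4) the Treml4 coefficient was -0.37 or -0.36, under the 1.3-fold limit, with adjusted p up to 0.0249. Ace had the opposite sign, at 0.13 (adjusted p = 0.0626). Ccr2 and Fcgr1 had coefficients of -0.25 and -0.31 and did not pass.

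**Figure D3:**
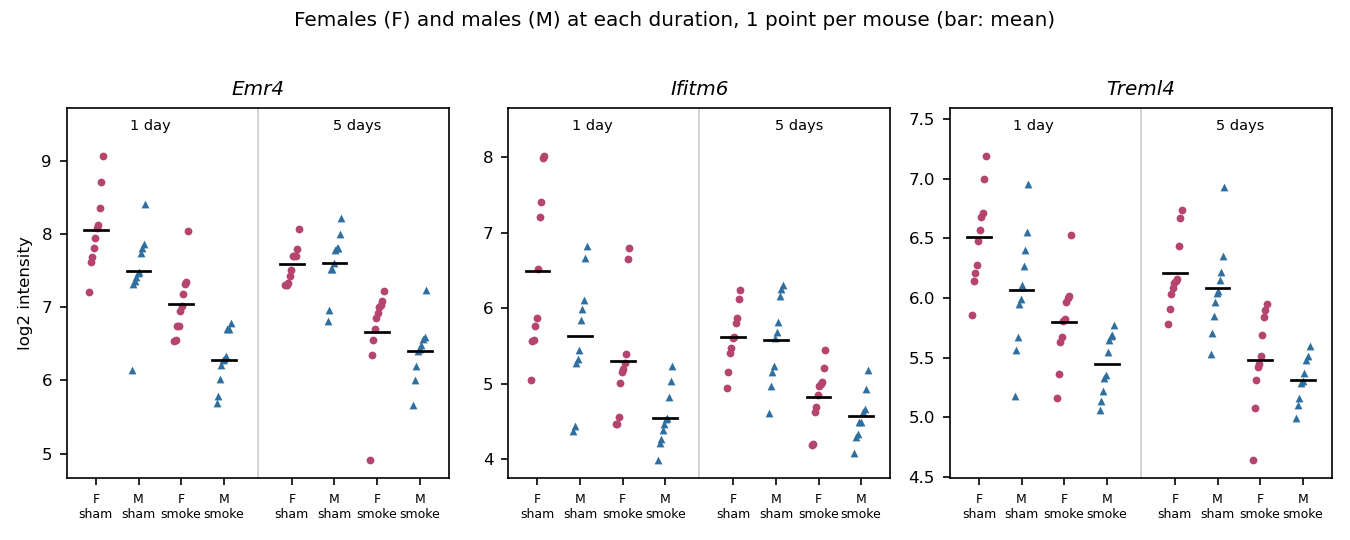
Log2 intensity (vertical axes) of Emr4, Ifitm6 and Treml4 in every mouse, by sex and exposure at each duration. Circles are females (F), triangles males (M) and bars are means. At 1 day the male means lie below the female means in both exposure arms, by 0.57 and 0.77 for Emr4, and at 5 days the sham means of Emr4 differ by 0.02.

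At 5 days none of the 9 genes was called for sex by limma (1 had an unadjusted p below 0.05), while 0.198% of all genes were. The coefficients were -0.10 for Emr4, -0.11 for Ifitm6 and -0.13 for Treml4. The change of the sex difference between durations was tested itself and none of the 9 genes passed, against 0.654% of all genes. It was 0.56 for Emr4 (95% interval 0.16 to 0.97, unadjusted p = 0.00699, adjusted p = 0.207) and 0.69 for Ifitm6 (0.14 to 1.25, unadjusted p = 0.0151, adjusted p = 0.274). The 1-day and 5-day mice are different animals, so a difference between durations cannot be told apart from one between sets of mice.

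Markers of other cells moved with sex at 1 day. All 6 measured neutrophil genes had negative coefficients (median -0.32), and 1, Retnlg, was called at -0.62. That call was lost without any 1 of 9 mice (WT sham-exposed female replicates 2 and 3 and male replicate 3, βENaC sham-exposed female replicate 2 and male replicate 4, WT smoke-exposed female replicate 5 and male replicate 2, and βENaC smoke-exposed male replicates 1 and 4). The mean level of the neutrophil list ran from 6.44 to 9.13 in females and from 6.41 to 8.84 in males. In the classical list the called gene was Ms4a4c (-0.42) of 11 measured and in the nonclassical list Clec4a1 (-0.54) of 12. The classical count was 3 under quantile normalization, 2 under median centring, cyclic loess normalization and array weights, and 0 to 3 with 1 mouse left out, the 0 without WT sham-exposed female replicate 3. The nonclassical count was 3 with no fold threshold. Medians were -0.12 and -0.20, against 0.008 over all genes. The platelet genes Gp9 (1.14) and Ppbp (0.60), 2 of 5, and Cidec (0.67) of the alveolar macrophage list rose in males, as did 1 of 6 transcription factor genes. All 5 B cell genes were negative (median -0.25). At 5 days the neutrophil median was 0.03, with none of the 6 genes called by limma, while 2 of 5 platelet genes, Gp9 (0.69) and Ppbp (0.68), and 2 of 4 red cell genes (list median 0.57), among them Slc4a1 (0.89), were called higher in males and the B cell median was -0.38 with all 5 negative. What part these cells had in the sex difference of Emr4, Ifitm6 and Treml4 was not tested.

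At 1 day limma called none of the 9 genes for genotype, against 1.54% of all genes, and 2 had an unadjusted p below 0.05. These were Emr4 at -0.41 (SE 0.14, adjusted p = 0.0671) and Treml4 at -0.33 (SE 0.11, adjusted p = 0.0674), both lower in βENaC mice. Emr4 passed, at -0.46 to -0.44, when any 1 of 6 mice of the 1-day set was left out (WT smoke-exposed female replicate 2, WT sham-exposed female replicates 1 and 5, βENaC sham-exposed female replicate 3, βENaC smoke-exposed female replicate 5 and βENaC sham-exposed male replicate 3). At 5 days 1 gene, Ifitm6, was called, lower in βENaC mice, as were 0.651% of all genes. Ifitm6 ran from 4.50 to 6.30 (median 5.34) in 20 WT mice and from 4.09 to 5.81 (median 4.97) in 19 βENaC mice. The genotypes overlapped, the coefficient of βENaC against WT was -0.42 (SE 0.12, adjusted p = 0.0159), and the difference was -0.56 under sham and -0.30 under smoke. In 1 fit over all mice in place of the 5-day mice alone, the coefficient was again -0.42 and the adjusted p was 0.182.

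At 5 days the sign was negative in 5 of the 9 genes, Ifitm6 among them, and positive in 4. Emr4 was at -0.18, Ace at -0.06, Spn at -0.01 and Fcgr1 at 0.07, and none of these was called. Ccr2 was at 0.26 (adjusted p = 0.114), Cx3cr1 at 0.19 (adjusted p = 0.218), Csf1r at 0.10 (adjusted p = 0.164) and Treml4 at -0.21 (adjusted p = 0.197). The change of the genotype effect with duration was called in no gene of the table (0%), and it was -0.11 (SE 0.28) for Ifitm6.

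**Figure D4:**
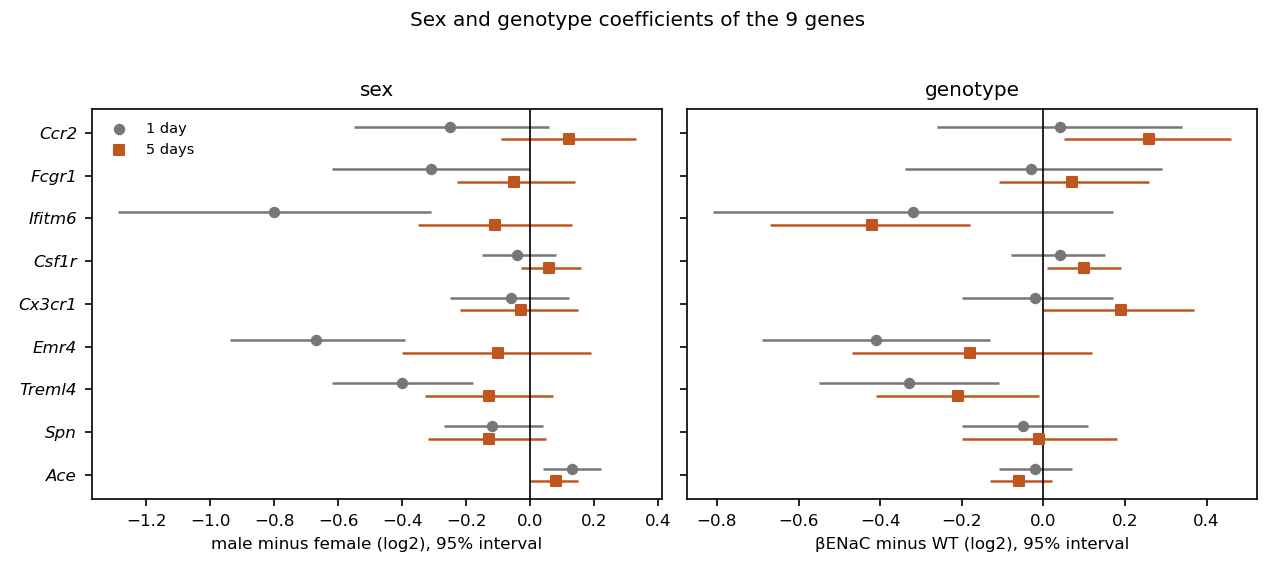
Coefficients of male against female (left) and βENaC against WT (right) for the 9 genes, as log2 differences on the horizontal axes with 95% intervals, at 1 day (grey circles) and 5 days (orange squares). For sex, the 1-day points of Emr4 (-0.67), Ifitm6 (-0.80) and Treml4 (-0.40) lie left of their 5-day points, and for genotype, Ifitm6 lies left of 0 at 5 days (-0.42).

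While Ifitm6 was lower in βENaC mice at 5 days, several ligands of these receptors and their signalling partners were higher. Of 6 ligand genes, Ccl7 (1.02), Ccl2 (1.00) and Ccl12 (0.78), all ligands of CCR2, rose in βENaC mice at 5 days, and Cx3cl1, the ligand of CX3CR1, was at -0.27, under the fold limit. Of 7 signalling partners, the Fc receptors Fcgr2b (0.73) and Fcgr3 (0.67) and the signalling adaptors Tyrobp (0.47) and Fcer1g (0.42) rose. The list medians were 0.48 and 0.42 against -0.012 over all genes. In the nonclassical list Itgax (1.21), Pglyrp1 (0.82) and Fcgr4 (0.66) rose and Cd300e (-0.40) fell, and in the classical list F10 (0.90) and Ccr1 (0.58) rose. Alveolar macrophages also express Itgax and several of the Fc receptors, and in their list Marco (0.84), Chil3 (0.79), Mrc1 (0.63) and Plet1 (0.56) rose, 4 of 9, while Cidec (-0.44) fell. Of the interstitial macrophage list C1qa and C1qb (0.50 each) rose and Lyve1 (-0.55) fell, Flt3 (0.55) and Alox15 (0.82) rose in the dendritic cell and eosinophil lists, Ednrb (-0.60) fell in the endothelial list, and of the red cell genes Ahsp (1.47) rose and Alas2 (-0.39) fell. The part of these cells in the values was not tested. The neutrophil list, with which Ifitm6 varied, had 0 of 6 genes called by limma and a median of 0.10.

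Whether smoke acted differently by genotype or sex was tested with a product term at each duration. None of the 9 genes passed in any of the 4 tests, and none had an unadjusted p below 0.05. Of all genes, 0.00638% passed for exposure by genotype and 0.00638% for exposure by sex at 1 day, and 0% for either at 5 days. At 1 day the exposure by genotype term was positive in 8 of 9 genes, that is, smoke minus sham was higher in βENaC than in WT mice for each gene except Emr4. Over all genes 40.6% were negative on this term. It was 0.41 for Treml4 (95% interval -0.02 to 0.84) and -0.01 for Emr4 (-0.57 to 0.55). The interval for Ifitm6 ran from -0.51 to 1.46, past the size of its smoke coefficient.

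In the classical list 4 of 11 genes fell at 1 day, among them Plac8 (-0.65), Ms4a4c (-0.55) and Ly6c2 (-0.38), and Plac8 (-0.75) and Ms4a4c (-0.60) fell at 5 days, 2 of 11. Ly6c2 encodes the surface antigen that defines the subset. Its 1-day coefficient lay close to the fold limit, and it was not called at 5 days. The classical count at 1 day was 3 without any 1 of 18 mice and 3 to 5 under the other alternatives. The classical count at 5 days was 3 without any 1 of 11 mice and 2 to 4 under the other alternatives. In the nonclassical list 5 of 12 genes fell at either duration. Among them were Clec4a1 (-0.69 and -0.53), Cd300e (-0.64 and -0.46) and Nr4a1 (-0.51 and -0.70), the factor this subset needs. The nonclassical count at 1 day changed without any 1 of 16 mice, and was 3 without WT sham-exposed female replicate 2. It was 4 to 6 under the other alternatives. At 5 days it was 4 without any 1 of 4 mice and 4 to 7 under the other alternatives. At the fold limit no gene of these lists was called higher at either duration, with the highest coefficients at 5 days those of Eno3 (0.33) and Mgst1 (0.19). The counts under the alternatives take genes called in either direction. In the test of exposure by duration 1 of 11 classical genes was called, with a positive term, and 0 of 12 nonclassical genes. The list medians were -0.29 and -0.28 at 1 day and -0.16 and -0.30 at 5 days. The lists were written with earlier results of these mice known and are no independent evidence of direction.

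None of the 6 ligand genes and none of the 7 signalling partners was called for exposure by limma at either duration, with medians between -0.24 and -0.05. For the signalling partners at 1 day this rested on the fold limit, since 1 of 7 was called lower under quantile normalization, cyclic loess normalization and array weights and without any 1 of 5 mice (WT sham-exposed female replicate 1, βENaC sham-exposed female replicate 1, WT smoke-exposed female replicate 5, and βENaC sham-exposed male replicates 4 and 5). Cx3cl1 (-0.25, adjusted p = 0.000704) passed the adjusted p at 1 day under the fold limit. None of the 6 transcription factor genes was called. The fold limit bears on all 3 lists. With no fold threshold 1 ligand gene, 2 signalling partners and 1 transcription factor gene were called at 1 day, and 1 of each at 5 days.

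Markers of other cells moved with exposure to different degrees. Of 6 neutrophil genes Retnlg fell at 1 day (-0.66) and none was called at 5 days. The count at 1 day was 2 under quantile normalization, cyclic loess normalization, the filter on dim genes, array weights and 1 fit over all mice and without any 1 of 11 mice, and the count at 5 days was 0 to 2 across the alternatives tried. The list median was -0.48 and then -0.26, and the list level ran from 6.41 to 9.13 under sham and from 6.41 to 8.21 under smoke at 1 day. At 5 days 4 of 4 red cell genes rose, among them Slc4a1 (1.89), Alas2 (0.96) and Ahsp (0.94), with list levels between 5.75 and 7.65 under sham and between 6.65 and 8.80 under smoke. Of 7 dendritic cell genes Xcr1 and Siglech (both -0.38) fell at 5 days, of 9 alveolar macrophage genes Ear2 (-0.41) fell, and of 5 eosinophil genes Ccr3 (-0.91) fell. Lyve1 of the interstitial macrophage list rose at both durations (0.52 and 0.61). No gene of the NK cell, T cell, B cell, endothelium or platelet lists was called for exposure at either duration. All 5 NK cell genes and all 5 B cell genes were nevertheless negative at both durations, with medians of -0.28 and -0.31 at 1 day, about as far from 0 as those of the monocyte lists, and of -0.16 and -0.26 at 5 days. The part of these cells in the exposure values of the 9 genes was not tested.

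Between mice of the same group, after the group mean was removed, the 9 genes varied together to different degrees. The correlations, over 79 mice and across genes on the same arrays, are a description. Emr4 and Treml4 were the most alike pair (r = 0.80), and both varied with Spn (0.61 and 0.59). Among the classical genes the values were 0.74 for Ccr2 and Fcgr1, 0.67 for Fcgr1 and Ifitm6 and 0.61 for Ccr2 and Ifitm6. In the same order they were 0.86, 0.80 and 0.76 in the 1-day mice, and only 0.41, 0.14 and 0.16 in the 5-day mice. Between the subsets r was lower for some pairs, such as 0.29 for Fcgr1 and Treml4 and 0.15 for Fcgr1 and Spn. Other such pairs were higher, with Ccr2 and Emr4 at 0.62, or 0.76 in the 5-day mice, and Ifitm6 and Emr4 at 0.50. Cx3cr1 was at 0.73 with Ccr2 and 0.68 with Emr4, and Csf1r was closest to Fcgr1 (0.71).

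**Figure D5:**
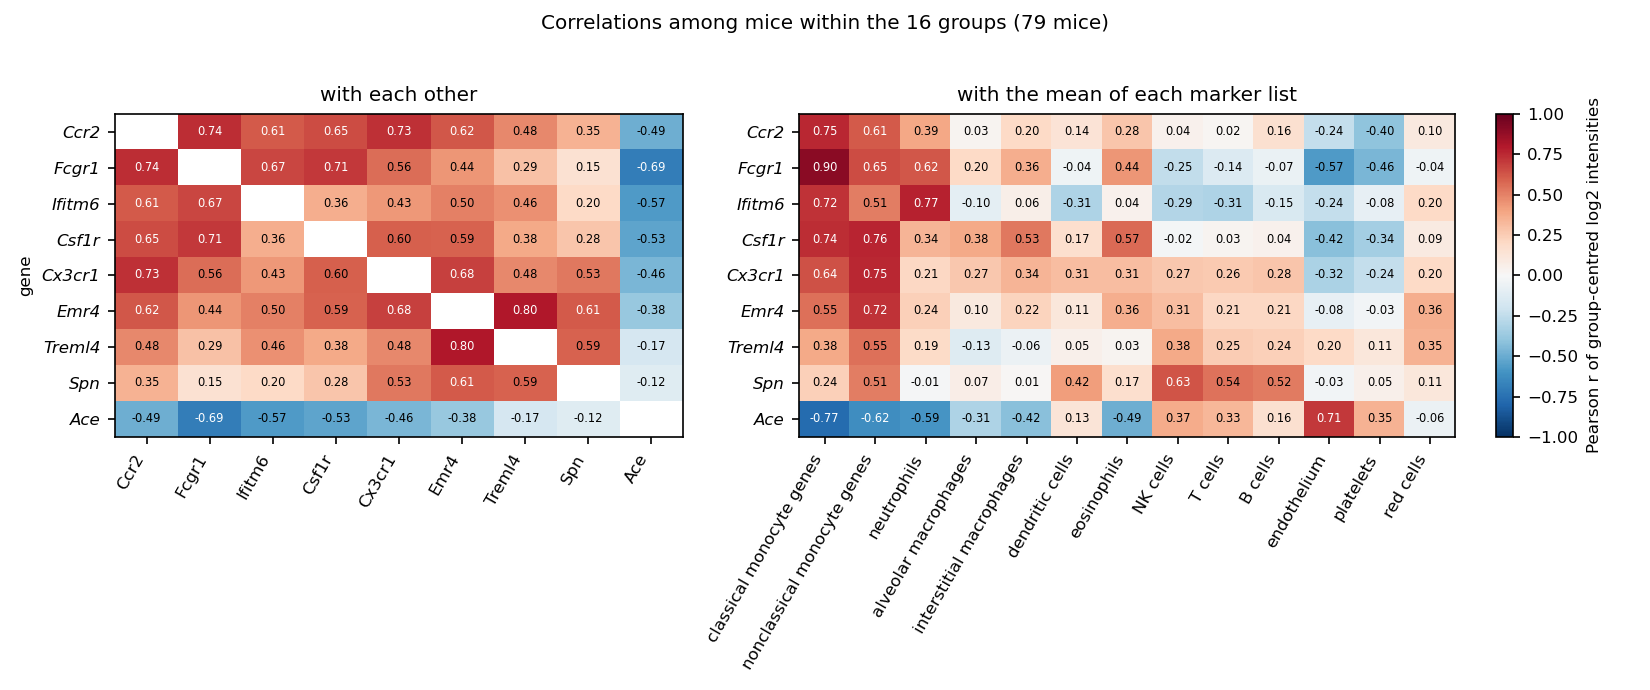
Pearson correlation of group-centred log2 intensities over 79 mice (colour scale from -1 to 1, values printed in the cells) between the 9 genes (left) and between each gene and the mean of each marker list (right). Emr4 and Treml4 reach 0.80, and the row of Ace is negative with the other 8 genes and 0.71 with endothelium.

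Over all mice Ace varied in the opposite direction to the other 8 genes, from -0.12 with Spn to -0.69 with Fcgr1. This depended on the mice used. With Ccr2 and Ifitm6 Ace was at -0.73 and -0.74 in the 1-day mice but at -0.01 and -0.05 in the 5-day mice. In the 5-day mice its values ran from -0.49 with Fcgr1 to 0.03 with Treml4. Over all mice Ace was at 0.71 with the mean of 7 endothelial genes and at -0.77 with the classical list. Ifitm6 was at 0.77 with the neutrophil list and 0.72 with the classical list, and Fcgr1 at 0.90 with the classical and 0.62 with the neutrophil list. Spn was at 0.63 with NK cell, 0.54 with T cell and 0.52 with B cell genes, and at 0.24 with the classical list.

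The genes most like each member, by the same measure among all genes with a symbol, were for Ccr2 Pld4 (0.87), Plac8 (0.82) and Clec12a (0.82), for Fcgr1 Ms4a6c, Alox5ap and Msr1 (0.83 each) and for Ifitm6 Gm9733 (0.84), Csf3r (0.83) and Arhgef37 (0.83). For Csf1r they were Tnfrsf1b, Myo1f and Fcer1g (0.81 each) and for Cx3cr1 Pld4 (0.80), Plac8 (0.80) and Ly86 (0.79). For Emr4 they were Treml4 (0.80), Atp8b4 (0.80) and Itgal (0.78), and for Treml4 Emr4 (0.80), Itgal (0.70) and Serpinb10 (0.70). Spn was most like Itga4 (0.73), Ptprc (0.68) and Cd180 (0.68), and Ace most like Reck (0.80), Slco2a1 (0.79) and Lifr (0.78). The number of genes correlated above 0.7 ranged from 2 for Treml4 and Spn to 102 for Fcgr1. Of these 27 nearest genes, 10 stayed among the nearest 3 with Spearman correlation and 5 in the 5-day mice alone, so the names depend on the mice used.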

How the data were processed

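Whole lung RNA of 79 mice was hybridized to 1 Affymetrix moGene array each, all on the same plate. The authors deposited log2 intensities per gene, made, per their processing notes and methods, with Affymetrix Expression Console 1.4 and Partek 6.6 by RMA (background, GC and probe sequence corrections, then quantile normalization and median polish), and removed 1 array as mislabelled. Median polish and quantile normalization can narrow differences between arrays. No further normalization was applied to the deposited values. Precision is limited by how many arrays each group had. Symbols came from the paper's tables for 2537 genes and otherwise from RefSeq by transcript, and 9513 genes had none.

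Groups came from titles and characteristics. The members and the gene lists were chosen with earlier results of these data known. Each duration was fitted in R 4.3.3 with limma 3.58.1 (lmFit, eBayes) with terms for exposure, genotype and sex, adjusted by Benjamini-Hochberg over 31350 genes. Calls needed an adjusted p under 0.05 with a log2 difference beyond 0.379 (1.3-fold), and product terms at an adjusted p below 0.05 alone. p-values measure the spread between mice. Genes were named by rule, as the 9 members, up to 4 called genes with the largest coefficients per list and contrast, and the 3 genes most correlated with each member. Another list gene, Cx3cl1, was chosen after its values were seen. Some list genes are not reported here. Of 115 list genes 110 were matched to the table. The fit was tested on simulated data. Alternatives were an ordinary linear model, median centring, quantile or cyclic loess normalization, a filter on the dimmest 30% of genes, a trend and robust prior, array weights, a replicate block, no fold threshold, 1 fit over all mice, each mouse left out and, added after the data were examined, omission of the 3 arrays least like their group. Replicate numbers were checked for pairing by correlation, and mice were not treated as paired. Figures were drawn with matplotlib 3.10.9 in Python 3.11.15.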

Additional observations from a re-analysis of the deposited data

Results flagged for a closer look

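Among the 144 combinations of gene and group, 11 held a mouse farther from the rest of its group than Dixon's 95% limit allows, and chance flags about 1 in 20. WT smoke-exposed female replicate 2 at 5 days was the low mouse in Ccr2 (5.12), Csf1r (8.31), Emr4 (4.91) and Ace (11.21), and its array was among the 3 least like the rest of their group. Ccr2 was high in WT sham-exposed male replicate 1 at 1 day (8.02). Ifitm6 was high in βENaC smoke-exposed male replicate 2 at 1 day (5.24). Csf1r was high in βENaC smoke-exposed female replicate 3 at 5 days (9.16). Cx3cr1 was low in WT smoke-exposed male replicate 1 at 1 day (6.18) and high in βENaC smoke-exposed male replicate 1 at 1 day (7.08). Spn was low in βENaC sham-exposed female replicate 2 at 5 days (5.91), and Ace was low in WT smoke-exposed female replicate 5 at 1 day (11.16).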

How the results depend on the processing

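Omission of the 3 arrays least like their group was chosen after seeing the data. The counts of members called for exposure, sex and the product terms stayed within 1.5 times their values in every alternative run, and no coefficient of a called member changed sign. The count for genotype at 1 day was 1 in place of 0 under quantile normalization (Emr4, -0.44, adjusted p = 0.043). For genotype at 5 days it was 0 in place of 1 in 1 fit over all mice (Ifitm6, adjusted p = 0.182). With the replicate number as a block the count for genotype at 1 day was 1 (Emr4, -0.41, adjusted p = 0.0385). Mice with the same number had a median correlation of 0.01 over 266 pairs, 42 of them above 0.1. For mice with other numbers it was 0 over 1098 pairs, 128 of them above 0.1. These correlations cannot show whether some mice shared a litter or an exposure run. The block moved no other member count. Ccr2 also met the definition for exposure at 1 day under 5 alternatives and without any 1 of 10 mice. When single mice were omitted, the counts were 4 to 5 for exposure, 0 to 1 for genotype and 2 to 3 for sex at 1 day, 6 to 6 and 1 to 1 for exposure and genotype at 5 days, and 0 to 0 for the rest. Of the 27 nearest genes, 10 stayed with Spearman correlation, 10 in 1-day mice, 5 in 5-day mice and 8 in sham-exposed mice. The causes were not tested. No scaling moved the median of all genes by 0.1. Over all genes, the 192 called for exposure by duration became 447 with array weights and 299 with the dimmest 30% omitted, and the 205 for sex by duration became 445 with array weights, 105 with quantile normalization and 106 with median centring.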
